A study of Mus musculus with 6 samples.

Results

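The genes described are 8 antioxidant genes, most of them classical targets of the transcription factor Nrf2, and the metallothioneins Mt1 and Mt2. The 10 genes are Hmox1, Nqo1, Gclm, Gclc, Txnrd1, Srxn1, Slc7a11, Sod2, Mt1 and Mt2. They were taken by gene symbol from a table of 24479 genes, where each of the 10 had 1 row. Liver sinusoidal endothelial cells (LSECs) were isolated from Lyve-1-KO and Ctrl mice with collagenase, a Nycodenz gradient and magnetic beads against CD146, and the RNA was measured on Affymetrix MoGene-2_0-st arrays. Each group had 3 arrays, and each array held the pooled LSECs of 3 mice. The Lyve-1-KO mice were constitutive knockouts of the strain B6.129S1-Lyve1tm1Lhua/J on a C57BL/6 background, so that every cell type of the animal carried the allele. The Ctrl mice are wildtype C57BL/6J in the labels, and the methods list littermates as well as purchased animals as controls without saying which were pooled here, so an effect of origin and an effect of genotype cannot be told apart. No treatment is named for either group, and age and sex are not given for the single pools.

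The values are log2 expression levels, and the arrays have 1 shared distribution, from 2.92 to 13.87 with a median of 5.04. Lyve1, which is deleted in the knockout and encodes a receptor for hyaluronan, had levels of 12.85, 12.88 and 12.83 in the arrays labelled Lyve-1-KO and of 12.78, 12.69 and 12.84 in the Ctrl arrays. The signal was thus not lower under the knockout label (log2 fold change 0.08, limma adjusted p = 0.663), and where its probes lie relative to the deleted part is not analysed here. The paper reports that western blots and immunofluorescence of liver tissue showed the knockout, which measures protein and not this RNA signal. Higher and lower below refer to the label of the arrays. The mean of 18 LSEC markers, among them Fcgr2b, Clec4g, Oit3 and Kdr, with Lyve1 itself in the list, was 12.61 to 12.63 under the knockout label and 12.64 to 12.66 in the Ctrl arrays, near the top of the scale. Arrays differed in the markers of other cells. The mean of 15 macrophage markers was lowest in Ctrl replicate 1 at 6.95, against 7.97 to 8.85 in the other 5 arrays, and the mean of 8 neutrophil markers was highest in Lyve-1-KO replicate 3 at 7.40, against 5.27 to 6.19 elsewhere. The 16 hepatocyte markers were highest in replicate 2 of both groups, at 8.71 and 8.67, against 7.55 to 7.98 in the other arrays.

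Nrf2, encoded by Nfe2l2, is held at a low level by Keap1, which hands it to the Cul3 ubiquitin ligase for degradation. Electrophiles and oxidants release it, and together with a small Maf protein it binds antioxidant response elements in genes of glutathione synthesis, thioredoxin reduction and heme breakdown, where Bach1 competes as a repressor. Metallothioneins are small cysteine-rich proteins that bind zinc and copper. The zinc sensor Mtf1 induces their genes through metal response elements, and glucocorticoids induce them as well. In the liver Hmox1 is known for its high level in Kupffer cells, which recycle the heme of aged red cells, and metallothioneins are best known from hepatocytes.

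The stretches around the transcription starts show which members carry the letters of these elements near the start. Windows of 250 bases before to 50 bases after each annotated start were taken from RefSeq (GRCm38.p6), where 8 of the 10 genes matched, with 3 starts for Txnrd1, and Hmox1 and Gclc did not. Both strands were searched for the core of the antioxidant response element, TGACNNNGC, and for the core of the metal response element, TGCACNC or TGCGCNC. The 8 genes had 10 windows in all. The antioxidant core was found in 4 of the 8 genes, Gclm, Txnrd1, Srxn1 and Mt2, and for Txnrd1 in 1 of its 3 windows. It is present in 12.4% of 32851 windows of the same length. The metal core was found in 4 of the 8 genes, Gclm, Srxn1, Mt1 and Mt2, and is present in 25.7% of the windows. Mt1 and Mt2 are neighbouring genes on chromosome 8 and are shown whole as the metallothioneins of the set. The capitals mark matches to either core, on the + strand at chr8:94178839-94179138 for Mt1 and at chr8:94172368-94172667 for Mt2.
Mt1: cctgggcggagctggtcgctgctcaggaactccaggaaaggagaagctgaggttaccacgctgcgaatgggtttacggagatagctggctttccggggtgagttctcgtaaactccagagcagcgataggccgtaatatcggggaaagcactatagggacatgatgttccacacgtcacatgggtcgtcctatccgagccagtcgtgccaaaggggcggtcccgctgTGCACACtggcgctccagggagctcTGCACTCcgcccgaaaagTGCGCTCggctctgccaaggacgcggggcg
Mt2: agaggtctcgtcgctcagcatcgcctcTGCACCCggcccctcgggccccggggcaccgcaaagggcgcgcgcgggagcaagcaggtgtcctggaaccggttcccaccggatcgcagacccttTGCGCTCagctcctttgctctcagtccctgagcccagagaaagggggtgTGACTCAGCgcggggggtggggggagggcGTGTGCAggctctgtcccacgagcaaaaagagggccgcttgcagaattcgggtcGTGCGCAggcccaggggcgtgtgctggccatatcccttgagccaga

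The window of Mt1 held 3 metal cores, at -23, 3 and 21 from the start, a number that 1.97% of all windows reach. The window of Mt2 held 4, at -223, -128, -50 and 5, which 0.517% reach. Mt2 also held an antioxidant core at -79, and Mt1 held none in this window. Bases outside the windows were not searched, so a core of Mt1 beyond its window would be missed. Positions and counts depend on the annotated start, and whether LSECs use that start was not tested. A link between the motifs and the levels of Mt1 and Mt2 was not tested. That core in Mt2 contains the AP-1 site TGACTCA, which is present in 5.2% of all windows, so the same letters match both motifs. A match is a description of letters and not of binding.

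**Figure D1:**
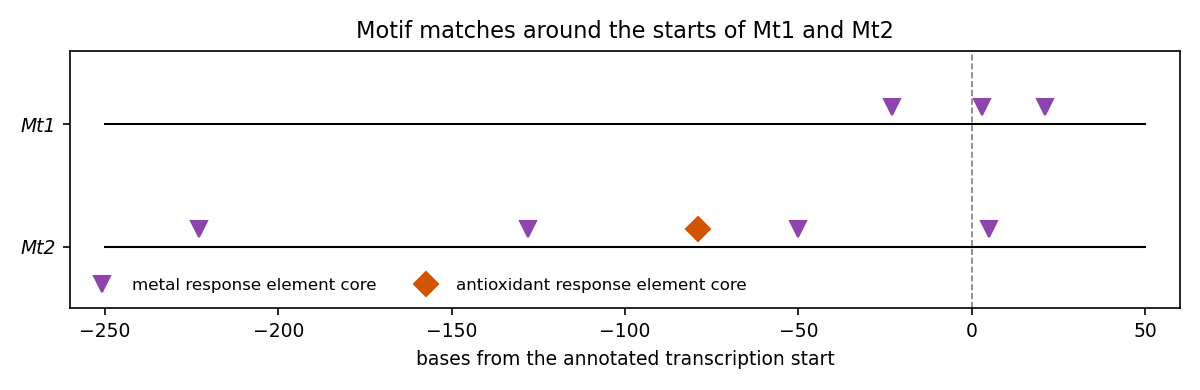
Positions of motif matches in the windows of Mt1 and Mt2, in bases from the annotated start (dashed line at 0). Purple triangles are metal response element cores and the orange diamond is the antioxidant response element core. Mt1 had 3 metal cores, between -23 and 21, and Mt2 had 4 metal cores over the whole window and 1 antioxidant core at -79.

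The other antioxidant cores lay in Gclm, Txnrd1 and Srxn1, and each is shown with its surroundings, because these are the members with an element at the start whose levels can be read beside it. The core lies on the opposite strand in all of them and is printed in capitals as its reverse complement. The stretches lie on the + strand at chr3:122245413-122245442, chr10:82859104-82859133 and chr2:152105542-152105571.
Gclm: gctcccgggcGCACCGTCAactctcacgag
Txnrd1: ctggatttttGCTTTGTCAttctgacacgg
Srxn1: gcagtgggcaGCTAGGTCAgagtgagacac
In Gclm the core starts at -134 and overlaps a metal core that starts at -138. In Txnrd1 it starts at -92 of the second annotated start and in Srxn1 at 29 after the start. Nqo1, Slc7a11 and Sod2 held neither core in these windows.

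None of the 10 genes passed the comparison of the groups by limma with adjustment over all genes at a threshold of 0.05. Of the 24479 genes 1 passed (0.00409%), Iqcn, named here after its values were seen. At an unadjusted p under 0.05, Mt2 and Gclc, 2 of the 10, were higher under the knockout label and none was lower, where 5.87% of all genes were higher and 5.33% lower. With the methods' t-test the count was also 0 after adjustment and 2 before. The 3 arrays of one group lay wholly above the 3 of the other for the same 2 genes, Mt2 and Gclc, as 8.71% of all genes do in this direction, 8.73% in the other and 17.4% in either. Log2 fold changes above 0 were found for 8 of the 10 (48.9% of all genes), with a median of 0.07 against 0.00 over all genes. With the replicate number as a block 3 of the 10 had an unadjusted p under 0.05, and none passed.

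**Figure D2:**
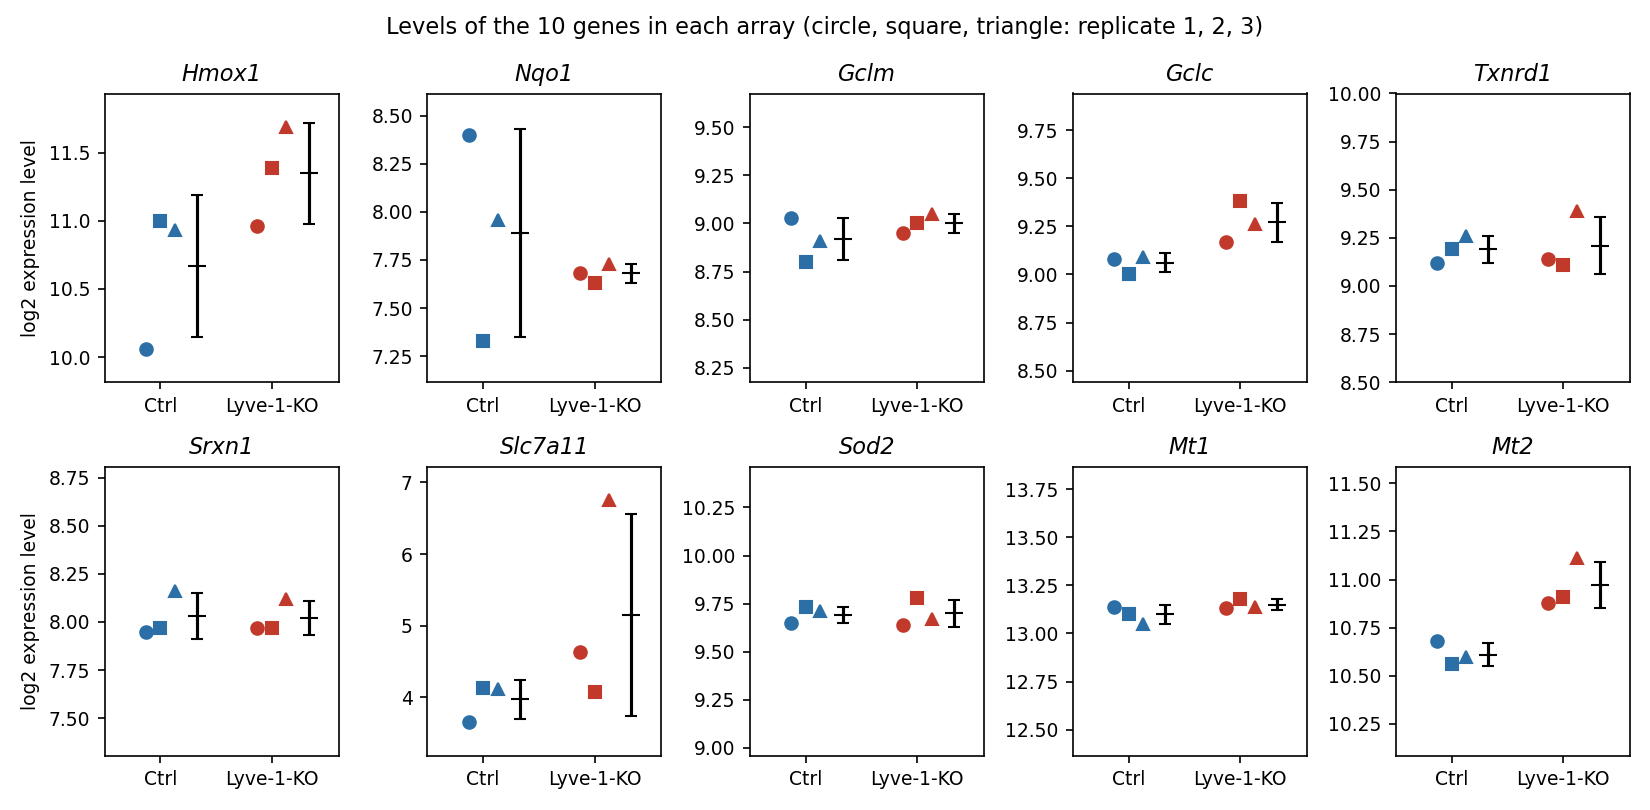
Log2 expression level of each gene in the 3 Ctrl arrays (blue) and the 3 arrays labelled Lyve-1-KO (red), with circle, square and triangle for replicates 1, 2 and 3 and the mean with its SD in black (n = 3). Each panel has its own range. The groups separate for Gclc and Mt2, 1 array stands apart for Slc7a11, and Ctrl arrays spread widely for Nqo1 and Hmox1.

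Of the metallothioneins, Mt2 separated the groups of arrays and Mt1 did not. Mt2 had levels of 10.88, 10.91 and 11.11 in the arrays labelled Lyve-1-KO and of 10.68, 10.56 and 10.60 in the Ctrl arrays. All arrays labelled Lyve-1-KO were above all Ctrl arrays, with means of 10.97 ± 0.12 and 10.61 ± 0.06 (SD, n = 3). The level was 1.28-fold higher (95% interval 1.12 to 1.46), or by 0.35 on the log2 scale (standard error 0.08), and it did not pass (limma unadjusted p = 0.00352, adjusted p = 0.246). The exact two-sided permutation test gave p = 0.1, the smallest that 3 arrays against 3 allow. Without single arrays the log2 fold change of Mt2 stayed between 0.28 and 0.40, with unadjusted limma p from 0.00537 to 0.0141. In pooled cells, here and below, more cells of a type and more RNA per cell cannot be told apart.

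Mt1 had levels of 13.13, 13.18 and 13.14 in the arrays labelled Lyve-1-KO and of 13.14, 13.10 and 13.05 in the Ctrl arrays. The groups overlapped, and the ratio was 1.04 with a 95% interval from 0.943 to 1.14 (limma adjusted p = 0.775). The signal lay close to the upper end of the scale at 13.87, and a compression of differences at that end was not tested. The hepatocyte markers had means of 7.68, 8.71 and 7.69 in the arrays labelled Lyve-1-KO and of 7.55, 8.67 and 7.98 in the Ctrl arrays, and their part in the metallothionein values was not tested.

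Mtf1 had a log2 fold change of 0.06 with overlapping groups. Of 20 genes of zinc and copper handling 0 passed limma, none was higher and 2 were lower at an unadjusted p under 0.05 (10% against 11.2% of all genes in either direction), and their median log2 fold change was -0.09. Leaving out Ctrl replicate 3 raised the count to 5. Slc39a8, an importer of zinc and manganese, had levels of 11.39, 11.31 and 11.32 against 11.52, 11.58 and 11.67 in the Ctrl arrays, a log2 fold change of -0.25 (limma adjusted p = 0.279). Slc30a4, a zinc transporter into vesicles, had a value of -0.22 (limma adjusted p = 0.329), also without overlap. Slc39a6, another zinc importer, lay at -0.26 and the copper chaperone Atox1 at -0.21. Leaving out Ctrl replicate 1 brought them to -0.13 and -0.11.

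Among 12 genes of the glucocorticoid response, with the receptor gene Nr3c1 in the list, 0 passed limma. At an unadjusted p under 0.05, 2 were higher and 1 lower (25% against 11.2% of all genes in either direction), with a median log2 fold change of 0.03. The count of 3 dropped to 0 when replicate 3 labelled Lyve-1-KO was left out, and to 1 when replicate 1 of that label or any single Ctrl array was. The kinase gene Sgk1 and the phosphatase gene Dusp1 had log2 fold changes of 0.15 and 0.27, both without overlap. Fkbp5, a co-chaperone of the glucocorticoid receptor, lay on the other side at -0.43 with levels of 8.90, 9.26 and 8.80 against 9.55, 9.23 and 9.46. The clock gene Per1 had a log2 fold change of 0.46 that ranged from 0.22 without Ctrl replicate 3 to 0.82 without Ctrl replicate 1.

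Gclc and Gclm encode the catalytic and the modifier subunit of glutamate-cysteine ligase, the first step of glutathione synthesis. Gclc had levels of 9.17, 9.38 and 9.26 in the arrays labelled Lyve-1-KO and of 9.08, 9.0 and 9.09 in the Ctrl arrays. The groups did not overlap, with means of 9.27 ± 0.10 and 9.06 ± 0.05 (SD, n = 3). The level was 1.16-fold higher (95% interval 1.03 to 1.31), or by 0.21 on the log2 scale (standard error 0.07), and it did not pass (limma unadjusted p = 0.0226, adjusted p = 0.373). The exact two-sided permutation test again gave the smallest possible p of 0.1. Without single arrays the unadjusted limma p of Gclc ranged from 0.0156 to 0.0726, and it was above 0.05 when Ctrl replicate 2 or replicate 2 or 3 labelled Lyve-1-KO was left out.

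Gclm had levels of 8.95, 9.0 and 9.05 in the arrays labelled Lyve-1-KO and of 9.03, 8.80 and 8.91 in the Ctrl arrays. The groups overlapped through Ctrl replicate 1, and the ratio was 1.06 with a 95% interval from 0.935 to 1.2 (limma adjusted p = 0.716).

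The other genes listed here for the glutathione system lay mostly on the other side. Of 19 genes 14 were below 0, while 48.9% of all genes were above 0. The median of the list was -0.15 on the log2 scale. None passed limma, and 4 were lower and none higher at an unadjusted p under 0.05, or 21.1% against 11.2% of all genes in either direction. Without Ctrl replicate 2 that count was 8. The 4 were Gpx7, a glutathione peroxidase of the endoplasmic reticulum, at -0.29 (limma adjusted p = 0.224), the mitochondrial glutaredoxin Glrx2 at -0.24, the glutathione-degrading enzyme Chac2 at -0.34 and Esd, which hydrolyses S-formylglutathione, at -0.35. Their groups did not overlap. In the whole list 5 genes were lower and 2 higher without overlap, where 8.73% and 8.71% of all genes were. The higher ones were Gpx4 at 0.26 and Glrx at 0.23. Chac1 and Gsta4, at 0.37 and 0.35, were counted in the lists of the Atf4 response and of other Nrf2 targets. Gpx7 had levels of 7.10, 7.20 and 7.20 against 7.42, 7.48 and 7.47, and Esd had levels of 5.75, 5.86 and 5.71 against 6.12, 6.26 and 6.00.

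Slc7a11 is the light chain of the cystine and glutamate exchanger, which brings in cystine for glutathione. It had levels of 4.63, 4.07 and 6.75 in the arrays labelled Lyve-1-KO and of 3.65, 4.13 and 4.12 in the Ctrl arrays. Replicate 3 labelled Lyve-1-KO stood far above the others, and the remaining 5 arrays lay below the array median of 5.04. The log2 fold change was 1.18 (standard error 0.64), the largest of the 10 genes with all arrays included, with a 95% interval from -0.33 to 2.69 (limma adjusted p = 0.537, exact two-sided permutation test, p = 0.3). Without Lyve-1-KO replicate 3 the log2 fold change was 0.38 (limma unadjusted p = 0.137).

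This array also had the highest neutrophil markers. Their mean was 6.19, 5.48 and 7.40 in the arrays labelled Lyve-1-KO and 5.27, 5.48 and 5.88 in the Ctrl arrays. The groups overlapped (exact two-sided permutation test, p = 0.3). Of the 8 markers 7 had a log2 fold change above 0, with a median of 0.94, where 48.9% of all genes were above 0. Of the neutrophil markers, Csf3r, S100a9, Cxcr2 and S100a8 had the highest mean levels. S100a8, a calcium-binding protein of neutrophils, had levels of 6.98, 5.94 and 8.80 against 5.87, 5.86 and 6.32, and S100a9 had 7.88, 6.37 and 9.64 against 6.22, 6.54 and 7.17. Of the granule genes, Mmp8 had 4.90, 4.67 and 6.97 against 4.46, 4.60 and 4.80, while Camp and Ngp, the only markers of the list with a mean below the array median, did not share the step. The part of neutrophils in the Slc7a11 value was not tested.

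Over all genes with 1 symbol the 3 whose profile over the 6 arrays lay closest to Slc7a11 were Mmp8, S100a8 and Slfn4. A search of 23281 genes over 6 arrays always returns close profiles, and the closeness was not tested. The distance was the root mean square difference of the log2 levels after each gene was centred on its own mean, and it was 0.21, 0.21 and 0.23, where Slc7a11 itself had a SD of 1.12 over the 6 arrays. Slfn4, a Schlafen family gene, had levels of 6.56, 5.79 and 8.67 against 5.01, 6.20 and 5.95. Slc3a2, the heavy chain that partners Slc7a11, had a log2 fold change of 0.08 with overlapping groups.

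Slc7a11 is also a target of Atf4, the transcription factor of amino acid shortage. Of 15 genes of the Atf4 response 0 passed limma, while at an unadjusted p under 0.05 there were 3 higher genes and 1 lower gene (26.7% against 11.2% of all genes in either direction), with a median log2 fold change of 0.14. The count of 4 was 8 with the replicate block, 2 when replicate 3 labelled Lyve-1-KO was left out and 1 with the methods' t-test. Atf3 had levels of 11.46, 11.66 and 11.81 against 10.06, 11.11 and 11.35, or 0.81 higher on the log2 scale. Leaving out Ctrl replicate 1 brought it to 0.41. The glutathione-degrading enzyme Chac1 had a value of 0.37 and Ppp1r15a, a phosphatase regulator of the stress response, of 0.41, both without overlap. Psat1, an enzyme of serine synthesis, lay at -0.25, with means of 3.62 against 3.87 that are below the array median.

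**Figure D3:**
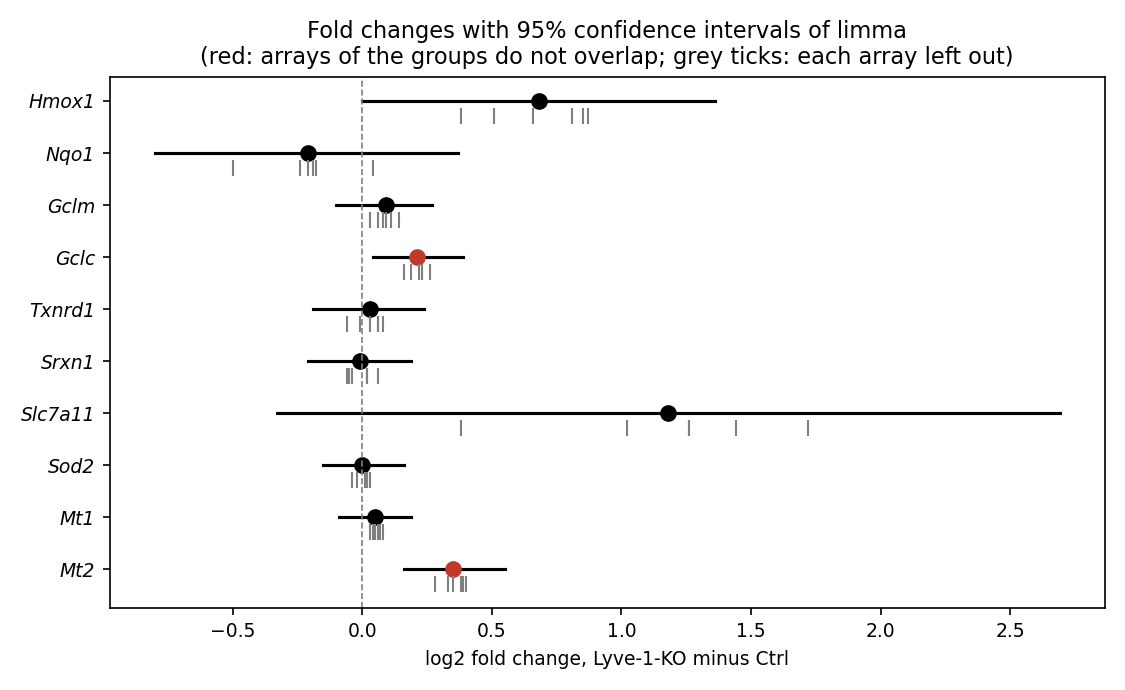
Log2 fold change of each gene (points) with the 95% confidence interval of limma (lines), and the values when each array in turn was left out (grey ticks). Red points mark the genes whose groups do not overlap, Gclc and Mt2. The interval of Slc7a11 runs from -0.33 to 2.69, and its value dropped to 0.38 without 1 array.

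Hmox1 encodes heme oxygenase 1, which breaks heme into biliverdin, iron and carbon monoxide. It had levels of 10.96, 11.39 and 11.69 in the arrays labelled Lyve-1-KO and of 10.06, 11.00 and 10.93 in the Ctrl arrays. Ctrl replicate 1 was far below the other arrays, and the groups overlapped because Lyve-1-KO replicate 1 lay just under Ctrl replicate 2. The means were 11.35 ± 0.37 and 10.67 ± 0.52 (SD, n = 3), a 1.6-fold higher level with a 95% interval from 0.998 to 2.57. The log2 fold change of 0.68 had a standard error of 0.29 and did not pass (limma unadjusted p = 0.0508, adjusted p = 0.449), and the exact two-sided permutation test gave p = 0.2. With the replicate number as a block, a pairing taken from these same data, the unadjusted limma p was 0.00179 and the adjusted p 0.239. Without Ctrl replicate 1 the log2 fold change was 0.38 (limma unadjusted p = 0.118), and without that array and Lyve-1-KO replicate 3 it was 0.21 (0.252 as unadjusted p).

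Ctrl replicate 1 and Lyve-1-KO replicate 3 were also the arrays with the lowest and the highest macrophage markers. The mean of 15 macrophage markers was 7.97, 8.50 and 8.85 in the arrays labelled Lyve-1-KO and 6.95, 8.76 and 8.27 in the Ctrl arrays. The groups overlapped (exact two-sided permutation test, p = 0.6). Of the 15 markers 13 had a log2 fold change above 0, with a median of 0.40, where 48.9% of all genes were above 0. The most abundant were C1qb, Clec4f, Cd68 and Cd5l, and none of the 15 had a mean below the array median. The Kupffer cell lectin Clec4f had levels of 9.86, 10.62 and 10.72 against 8.42, 10.79 and 9.97. Marco, a scavenger receptor named here after its values were seen, was the only marker without overlap, with 8.71, 9.70 and 10.99 against 6.33, 8.66 and 7.67 (limma adjusted p = 0.355). From the lowest to the highest macrophage mean the order was Ctrl 1, Lyve-1-KO 1, Ctrl 3, Lyve-1-KO 2, Ctrl 2 and Lyve-1-KO 3. Hmox1 in that order was 10.06, 10.96, 10.93, 11.39, 11.00 and 11.69. The part of macrophages in the Hmox1 value was not tested.

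**Figure D4:**
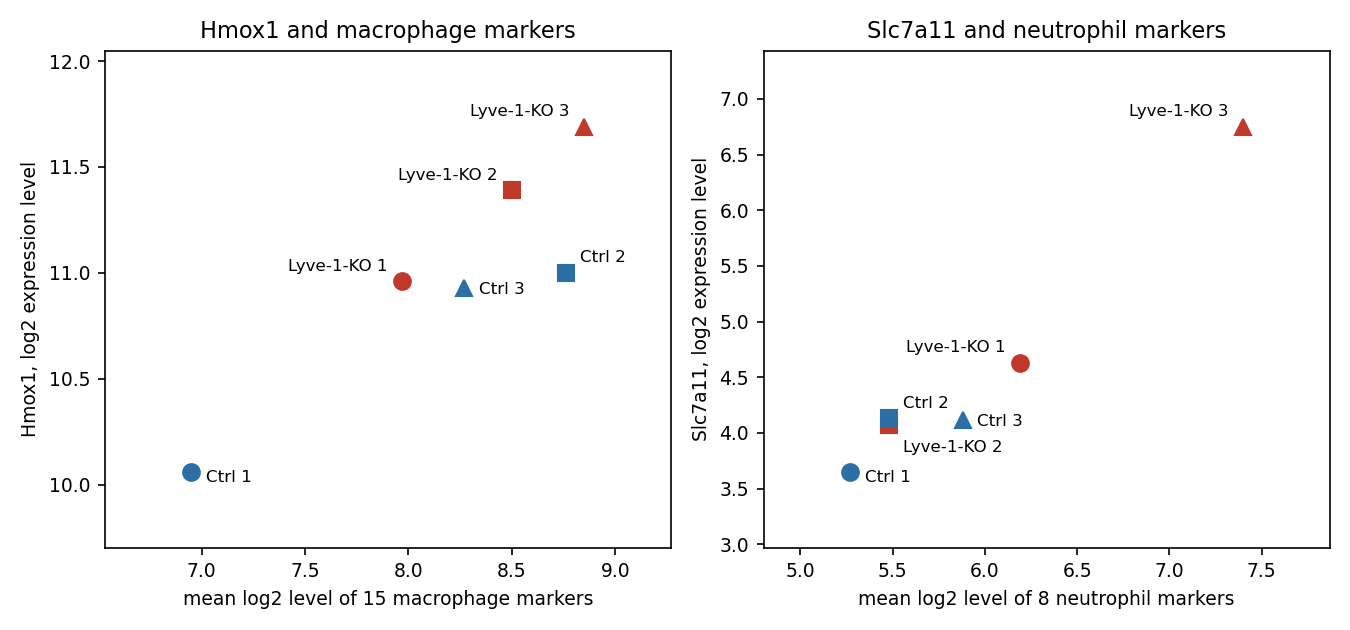
Left, the level of Hmox1 against the mean level of 15 macrophage markers, and right, the level of Slc7a11 against the mean level of 8 neutrophil markers, both on the log2 scale with 1 point per array (blue Ctrl, red labelled Lyve-1-KO). Ctrl replicate 1 was lowest on both axes of the left panel, and Lyve-1-KO replicate 3 was highest on both axes of both panels.

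The genes closest to Hmox1 over the 6 arrays were Tnfaip3, AB124611 and Dnaja1, at root mean square distances of 0.10, 0.11 and 0.11, where Hmox1 had a SD of 0.55. Their closeness was not tested either. Tnfaip3, an inhibitor of NF-kB signaling, had levels of 9.56, 9.76 and 10.12 against 8.57, 9.32 and 9.52. Dnaja1, a co-chaperone of Hsp70, had levels of 8.66, 9.12 and 9.26 against 7.87, 8.57 and 8.41. Neither passed limma (adjusted p = 0.419 and 0.329).

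The genes around Hmox1 in heme breakdown overlapped between the groups. Of 9 genes 0 passed limma and none had an unadjusted p under 0.05, and the median log2 fold change was 0.00. The constitutive heme oxygenase Hmox2 had a log2 fold change of -0.02 with a 95% interval from -0.16 to 0.12. The biliverdin reductases Blvra and Blvrb had values of -0.10 and -0.12, and the iron exporter Slc40a1 and the heme exporter Flvcr1 of 0.13 and 0.15. Cd163, the macrophage receptor for haemoglobin, had the highest value of the list at 0.56, with levels of 7.39, 8.14 and 8.94 against 6.48, 8.58 and 7.73, lowest and highest in the same arrays as the macrophage markers.

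Nqo1 encodes a quinone reductase and is widely used as a readout of Nrf2. It had levels of 7.68, 7.63 and 7.73 in the arrays labelled Lyve-1-KO and of 8.40, 7.33 and 7.96 in the Ctrl arrays. The Ctrl arrays spread on both sides of the arrays labelled Lyve-1-KO, with a SD of 0.54 against 0.05 (n = 3). The log2 fold change was -0.21 with a 95% interval from -0.80 to 0.37 (limma adjusted p = 0.787, exact two-sided permutation test, p = 0.7). Without Ctrl replicate 1 it was 0.04, and without Ctrl replicate 2 it was -0.50 (limma unadjusted p = 0.0112, adjusted p = 0.372). Nqo1 was highest in Ctrl replicate 1, the array in which Hmox1 and Slc7a11 were lowest.

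Txnrd1, the cytosolic thioredoxin reductase, and Srxn1, the sulfiredoxin that restores overoxidised peroxiredoxins, differed little. Txnrd1 had levels of 9.14, 9.11 and 9.39 against 9.12, 9.19 and 9.26, a ratio of 1.02 with a 95% interval from 0.876 to 1.18 (limma adjusted p = 0.943). Srxn1 had levels of 7.97, 7.97 and 8.12 against 7.95, 7.97 and 8.16, a ratio of 0.994 with an interval from 0.866 to 1.14 (limma adjusted p = 0.981). Replicate 3 had the highest value of both genes in both groups. The sign of the difference turned when single arrays were left out, for Txnrd1 between -0.06 and 0.08 and for Srxn1 between -0.06 and 0.06 on the log2 scale, and scaling on the LSEC markers turned Srxn1 to 0.02.

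Around them, 14 thioredoxin and peroxiredoxin genes had 0 that passed limma, while 4 were lower and none higher at an unadjusted p under 0.05 (28.6% against 11.2% of all genes in either direction). The median of the list was -0.06 on the log2 scale. Prdx2, a cytosolic peroxiredoxin, had levels of 9.71, 9.64 and 9.52 against 9.81, 9.90 and 9.91, a log2 fold change of -0.25 (limma adjusted p = 0.312). The sestrin gene Sesn3 had a value of -0.34, the thioredoxin reductase gene Txnrd3 of -0.30 and the mitochondrial thioredoxin Txn2 of -0.22. The count dropped to 2 when Ctrl replicate 1 or replicate 1 or 3 labelled Lyve-1-KO was left out.

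Sod2 encodes the manganese superoxide dismutase of mitochondria, which is better known as a target of NF-kB than of Nrf2. It had levels of 9.64, 9.78 and 9.67 in the arrays labelled Lyve-1-KO and of 9.65, 9.73 and 9.71 in the Ctrl arrays. The groups overlapped, and the ratio was 1 with a 95% interval from 0.901 to 1.11 (limma adjusted p = 0.992). Of 11 other genes that make or remove superoxide and peroxide 0 passed limma and none had an unadjusted p under 0.05. The cytosolic dismutase Sod1 had a log2 fold change of -0.09, the oxidase subunit gene Ncf4 of 0.34, the xanthine dehydrogenase gene Xdh of 0.17 and the paraoxonase gene Pon2 of -0.11. Without single arrays Sod1 ran from -0.17 to -0.03, Xdh from 0.08 to 0.27 and Pon2 from -0.16 to -0.06. Ncf4, a gene of the phagocyte oxidase, had 6.49 in Lyve-1-KO replicate 3 and 5.22 to 5.79 in the other arrays, and its value was 0.06 without that replicate and 0.15 without Ctrl replicate 1.

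The regulators of Nrf2 were measured as transcripts only. Nfe2l2 itself had levels of 11.61, 11.66 and 11.65 against 11.71, 11.64 and 11.57, with a 95% interval of the log2 fold change from -0.15 to 0.14. Of the 10 regulators 0 passed limma, 2 were higher at an unadjusted p under 0.05 and none was lower (20% against 11.2% of all genes in either direction), with a median log2 fold change of 0.07. Leaving out replicate 3 labelled Lyve-1-KO reduced the count to 1. Sqstm1, the autophagy receptor that sequesters Keap1 and is itself induced by Nrf2, had levels of 11.88, 11.90 and 12.01 against 11.66, 11.74 and 11.73, a log2 fold change of 0.22 without overlap (limma adjusted p = 0.324). The small Maf gene Mafk had levels of 8.95, 8.99 and 9.08 against 8.77, 8.87 and 8.82, a value of 0.19 (limma adjusted p = 0.383). The repressor Bach1 had a value of 0.14 without overlap, and Keap1 a value of -0.18 with overlap. In the list 3 genes were higher and 1, Nfe2l1 at -0.10, lower without overlap, where 8.71% and 8.73% of all genes were.

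Of 29 other known Nrf2 targets measured, 15 were above 0 and 14 below, and their median was 0.00 on the log2 scale, and 2 were higher and none lower at an unadjusted p under 0.05 (6.9% against 11.2% of all genes in either direction). The count was 4 when replicate 1 or 2 labelled Lyve-1-KO was left out and 1 without replicate 3 of that label. None passed limma. The 2 were Osgin1, an oxidative stress induced growth inhibitor, and the aldehyde oxidase Aox1. Osgin1 had levels of 9.58, 9.36 and 9.74 against 8.98, 8.87 and 9.36, a log2 fold change of 0.49 (limma adjusted p = 0.335), and Aox1 had levels of 8.48, 8.19 and 8.49 against 7.95, 8.08 and 7.59, a log2 fold change of 0.51 (limma adjusted p = 0.311). Gsta4, a glutathione transferase, and the NADPH-producing enzyme Idh1 had values of 0.35 and 0.16, and Gsta4 was 0.16 without Lyve-1-KO replicate 2, the array with the highest hepatocyte markers.

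**Figure D5:**
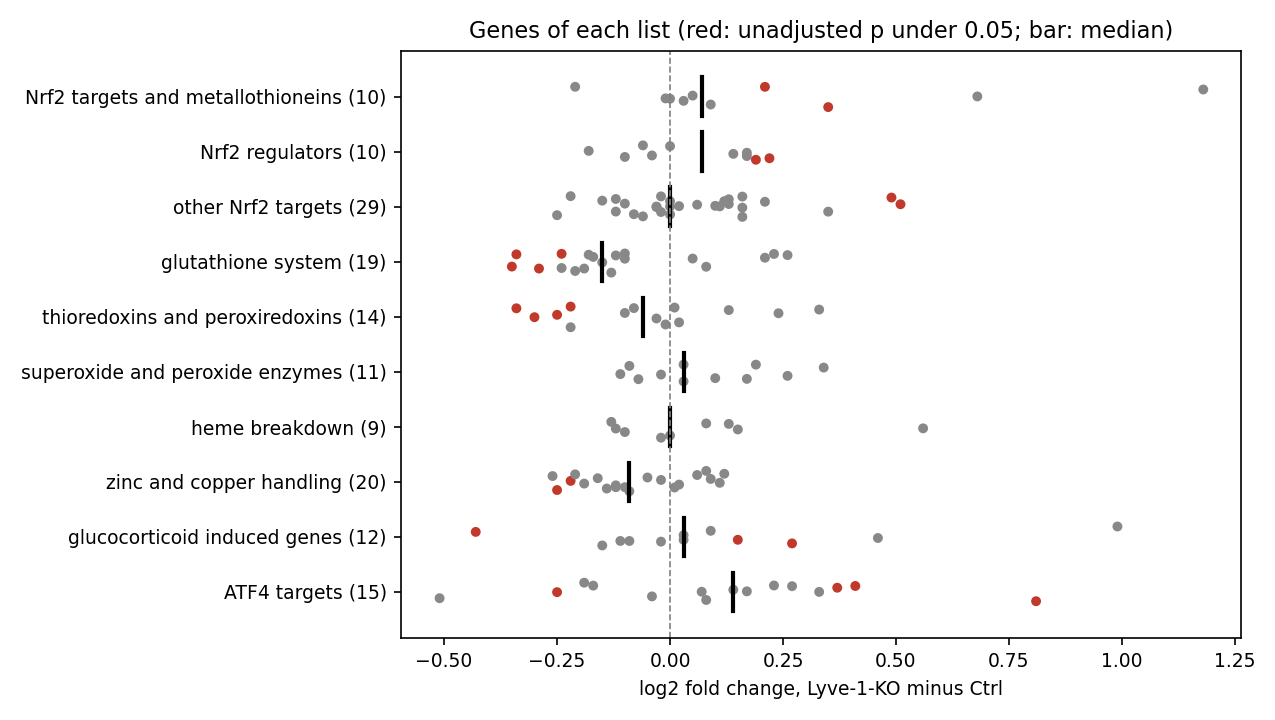
Log2 fold change of every measured gene in each pathway list (points, with the number of genes in parentheses), red where the unadjusted p of limma was under 0.05, and the median of the list as a black bar. Among the pathway lists plotted, the glutathione system had the lowest median at -0.15 and the Atf4 list the highest at 0.14, and none of the plotted genes passed after adjustment over all genes.

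The 10 genes thus differed in how much they varied between arrays. The SD over the 6 arrays was 1.12 for Slc7a11, 0.55 for Hmox1 and 0.36 for Nqo1, at percentiles 99.9, 98.6 and 95.9 of all genes. It was 0.05 for both Sod2 and Mt1, at percentiles 8.04 and 5.15. Slc7a11 stood out on the high side in Lyve-1-KO replicate 3, while in Ctrl replicate 1 Hmox1 was at its lowest and Nqo1 at its highest. For Mt2 and Gclc, with SDs of 0.21 and 0.14, the groups did not overlap, and neither gene passed limma. Groups did not overlap for 17.4% of all genes in either direction.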

How the data were processed

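LSEC RNA was measured on 6 Affymetrix arrays, 3 per group, with the cells of 3 mice pooled per array. The values deposited by the authors are log2 expression levels, made with a custom probe annotation based on Entrez genes and quantile normalization. The submitters' processing notes name RMA, and a genome build is not given in the sources used here. No depth applies to arrays, and 3 arrays per group limit the precision. The labels call the arrays of a group biological replicates, and p-values measure the spread between these pools. Of the 24479 rows, 23281 carry 1 symbol and 1198 are unnamed here.

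The groups were compared in R 4.3.3 by lmFit and eBayes of limma 3.58.1, without filtering, with Benjamini-Hochberg adjustment over all rows and a threshold of 0.05. For single values the permutation test was exact and two-sided. Scripts were tested on simulated arrays. The methods name a one-way analysis of variance per gene, which for a pair of groups equals an equal-variance t-test and is called the methods' t-test. The other alternatives were the replicate block, scaling on LSEC markers, median centring, leaving out genes whose mean level is under percentile 40, a trended and robust variance, array weights and leaving out each array. Leaving out Lyve-1-KO replicate 3 and Ctrl replicate 1 together was added after seeing the data.

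Both groups carry replicate numbers 1 to 3 with no stated meaning. Once group means were removed, same-numbered pools had correlations of 0.206, 0.134 and 0.124 over all genes. Differently numbered pools had -0.218 to 0.0432. By this check of the data the numbers were taken to pair the pools in the replicate block only. Removing the group means makes correlations of both signs unavoidable, so the check cannot decide whether the numbers pair the pools. The main fit, its intervals and the permutation tests did not use the pairing. Blocked values are not given for every named gene. In the glutathione and thioredoxin lists the count at an unadjusted limma p under 0.05 was 6 with the block and 4 without it.

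The members and gene lists were chosen with earlier results of these data known. The genes named are the 10 members, Lyve1, up to 4 genes per pathway list with the smallest unadjusted p, up to 4 per marker list with the highest level, and the 3 nearest profiles of the 2 most variable members. Nfe2l2, Mtf1, Nr3c1, Slc3a2, Hmox2, Cd163 and the neutrophil granule genes were added for their roles, with their values seen. Gpx4, Glrx and Nfe2l1 were added because their groups did not overlap. The lists hold Nrf2 regulators and targets, the glutathione, thioredoxin, superoxide, heme and metal systems, and genes of the glucocorticoid and Atf4 responses. The marker lists are of LSECs, hepatocytes, macrophages, neutrophils, lymphocytes, stellate cells and cholangiocytes. The lymphocyte, stellate and cholangiocyte means differed by -0.09, -0.01 and -0.20 between the groups (exact two-sided permutation test, p = 0.8, 1 and 0.4).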

Additional observations from a re-analysis of the deposited data

How the results depend on the processing

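None of the 10 genes passed limma after adjustment under any of the alternatives run. The lowest adjusted p of Mt2 was 0.0873, with a trended and robust variance. Over all genes the count that passed was 1, but 0 with the replicate block, 0 with the methods' t-test, 2 with scaling on the LSEC markers (Iqcn and Il33, named after their values were seen), 49 with a trended and robust variance, 0 without Lyve-1-KO replicate 3 and Ctrl replicate 1 together, and 0 to 2 without single arrays. The count of the 10 genes at an unadjusted p under 0.05 was 2, and 1 to 3 without single arrays, with 1 left, Mt2, without Lyve-1-KO replicate 3 and also without that array and Ctrl replicate 1. With the replicate block it was 3. For the pathway lists the methods' t-test reduced this count from 2 to 1 in the other Nrf2 targets and from 4 to 2 in the thioredoxin list. In the superoxide list it went from 0 to 1 without Ctrl replicate 1 or 3, and in the heme list from 0 to 1 without Ctrl replicate 2. Mt2 kept an unadjusted p under 0.05 in all 14 alternatives, Gclc in 10 and Hmox1 in 5.

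Directions turned in 4 of the 10 genes. Nqo1 ran from -0.50 to 0.04 without single arrays and was 0.01 without both arrays. Txnrd1 ran from -0.06 to 0.08 and was -0.10 without both. Srxn1 ran from -0.06 to 0.06 and was 0.02 with scaling on the LSEC markers. Sod2 ran from -0.04 to 0.03, and was -0.01 with array weights and without both. Among the other named genes Ncf4 ran from 0.06 to 0.53 without single arrays and turned to -0.13 without both. The cause was not tested. Centring on the median changed nothing, since the arrays share 1 distribution.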
